A study of Homo sapiens with 15 samples.

Results

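Cadherins are calcium-dependent adhesion proteins, and 8 of them that are known from kidney epithelium and renal tumors were followed here by symbol: CDH1, CDH2, CDH3, CDH4, CDH6, CDH11, CDH13 and CDH16. All 8 had values among the 16296 genes measured in CAKi-1 cells, and 7 had values among the 16188 genes measured in 786O cells, where CDH3 had none. In all, 7 of the 15247 genes measured in both lines were members.

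The study asked what the loss of ANGPTL4, a secreted regulator of lipases, does to the transcriptome of clear cell renal cell carcinoma (ccRCC) cells. Poly(A) RNA was sequenced in 15 libraries. CAKi-1 gave 4 libraries of WT cells and 5 of ANGPTL4 knockout (A4KO) cells, and 786O gave 3 of each. The values are TPM, transcript abundances corrected for length and scaled to a common library total, and they keep no read counts. The labels give a planned number of reads per sample, and the number obtained in each library cannot be read from TPM.

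The CAKi-1 A4KO cells were a mixture of CRISPR-Cas9 clones that had lost ANGPTL4, in a line with wild-type VHL. The CAKi-1 WT cells are parental cells by the methods of the study, whereas the design text names combined clones for both lines. The 786O A4KO cells were likewise a mixture of knockout clones, in a line with mutant VHL, and the 786O WT cells were a mixture of clones that had kept ANGPTL4. Effects of the chosen clones and of the genotype cannot be told apart. The labels give RPMI as the medium and the methods DMEM. Nothing says that replicates came from separate cultures, so p-values measure the spread between these libraries, which may be technical.

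ANGPTL4 itself was measured first as a check of the labels. The CAKi-1 values of replicates 1 to 4 were 74.9, 83.2, 86.9 and 71.7 TPM for WT, and those of replicates 1 to 5 were 7.26, 2.87, 2.87, 6.47 and 2.90 TPM for A4KO. The 786O values were 20.6, 17.6 and 18.1 TPM for WT, against 2.19, 2.17 and 1.86 TPM for A4KO. Every A4KO library lay below every WT library of its line, with a log2 fold change of -3.96 ± 0.25 (SE, limma adjusted p = 1.2e-05) in CAKi-1 and -2.69 ± 0.07 (adjusted p = 1.6e-06) in 786O.

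The CAKi-1 A4KO libraries fell into separate sets. Over the 12742 genes with a mean of at least 1 TPM, the SD of the log2 difference was 0.18 between replicates 1 and 4, 0.18 to 0.21 among replicates 2, 3 and 5, and 0.34 to 0.40 across these sets. Replicates 1 and 4 also held the higher ANGPTL4 values. Fold changes over replicates 2, 3 and 5 alone are therefore given for each cadherin and each called list gene of this line. Among the CAKi-1 WT libraries the same SD ran from 0.17 to 0.32, with the highest values in pairs that held replicate 4.

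PAX8, a transcription factor of the renal lineage, averaged 172 TPM in CAKi-1 WT and 231 TPM in 786O WT. In CAKi-1 A4KO it averaged 186 TPM (log2 fold change 0.11, limma adjusted p = 0.578). In 786O A4KO it averaged 152 TPM (-0.60, limma adjusted p = 4.5e-05), with the groups apart. VIM, the mesenchymal filament protein that ccRCC cells also make, was the most abundant gene of the renal list, at a mean of 2702 TPM over the CAKi-1 libraries and 3967 TPM over the 786O libraries. It was not called in either line, at 3220.5 TPM in CAKi-1 WT and 2287 in A4KO (log2 fold change -0.50, adjusted p = 9.7e-04) and 4508 and 3425 TPM in 786O (-0.40, adjusted p = 1.5e-04), with the groups apart in both. CA9, a hypoxia target typical of ccRCC, had no value in CAKi-1 and averaged 7.54 TPM in 786O WT. Proximal tubule markers were mixed. ANPEP averaged 129 TPM in CAKi-1 WT and 95 TPM in 786O WT, and GGT1 averaged 98.1 TPM in 786O WT and was at 13.9 to 19.0 TPM in CAKi-1 WT. LRP2, the megalin receptor that defines the proximal tubule, was near 0 in both lines, at a mean of 0.0400 TPM in CAKi-1 WT and 0.0292 TPM in 786O WT.

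Classical cadherins bind their like on the next cell through their outer domains and hold β-catenin and p120-catenin with their cytoplasmic tails, which link the junction to actin. CDH1 (E-cadherin), CDH2 (N-cadherin), CDH3 (P-cadherin) and CDH4 (R-cadherin) are of type I, and CDH6 (K-cadherin) and CDH11 (OB-cadherin) are of type II. CDH13 (T-cadherin) has no cytoplasmic tail and is held by a lipid anchor, and CDH16 (kidney-specific cadherin) has a short tail that does not bind β-catenin, so neither is classical in the strict sense. The proximal tubule, from which ccRCC is thought to arise, is known for CDH2 and CDH6, and the distal tubule and collecting duct for CDH1.

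In CAKi-1, 2 of 8 members were called different between A4KO and WT, against 3.33% of all genes. Called means that the log2 fold change was 1 or more in size, with an adjusted p no higher than 0.05. CDH13 was called higher, 1 of 8 against 2.21% of all genes, and CDH2 was called lower, 1 of 8 against 1.12%. By the adjusted p alone 4 of 8 members passed, against 39.0% of all genes, and both genotypes were fully apart for 5 of 8, against 35.9%. With 8 members, each of these shares rests on few genes.

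In 786O, 3 of 7 members were called, against 7.62% of all genes. CDH6, CDH11 and CDH13 were lower in A4KO, 3 of 7 against 5.19%, and 0 of 7 were higher, against 2.43%. By the adjusted p alone 6 of 7 passed, against 61.0% of all genes, and both genotypes were fully apart for 6 of 7, against 66.9%. The median log2 fold change of the members was -0.78 in 786O, where that of all genes was -0.03, and 0.04 in CAKi-1, where that of all genes was -0.01.

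**Figure D1:**
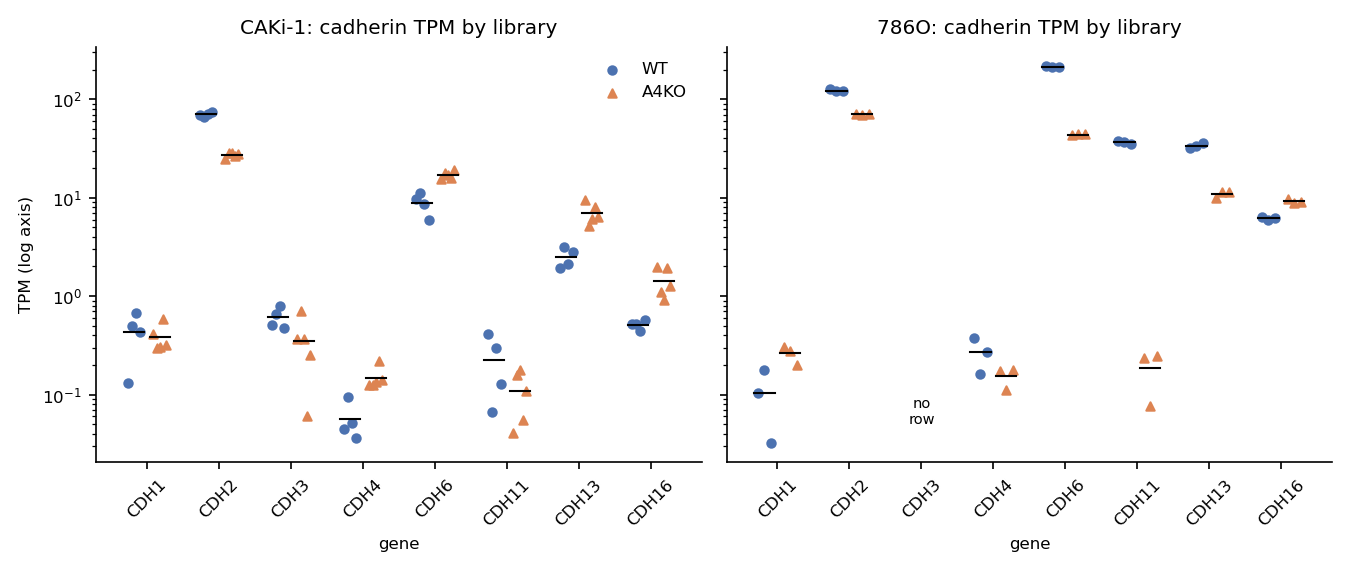
TPM of each cadherin in every library of CAKi-1 (left) and 786O (right), on a log axis, with WT as circles, A4KO as triangles and the group mean as a black line. CDH2 lies lower in A4KO in both lines, whereas CDH6 and CDH13 lie higher in A4KO in CAKi-1 and lower in 786O.

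CDH2, the N-cadherin of neural, mesenchymal and proximal tubule cells, was the cadherin with the highest mean in CAKi-1. Its TPM was 69.9, 66.3, 71.2 and 73.5 in WT replicates 1 to 4 and 24.5, 28.7, 28.5, 26.6 and 28.0 in A4KO replicates 1 to 5. Each A4KO library was below each WT library, and the means were 70.2 ± 3.02 (SD, n = 4) and 27.3 ± 1.75 (SD, n = 5). CDH2 fell by 1.33 ± 0.06 on the log2 scale (SE, limma adjusted p = 1.6e-06), and the value over A4KO replicates 2, 3 and 5 alone was -1.27.

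In 786O, CDH2 was at 126.7, 121.2 and 120.2 TPM in WT and 70.8, 70.0 and 71.7 TPM in A4KO. The groups again did not overlap, and the A4KO mean was 0.577 of the WT mean. The log2 fold change was -0.78 ± 0.04 (limma adjusted p = 1.1e-05), which is smaller than the fold threshold, so CDH2 was not called in this line. The effect differed between the lines by 0.55 (786O minus CAKi-1, 95% interval 0.38 to 0.72, limma interaction adjusted p = 5.1e-05).

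The bases before the CDH2 starts are shown because CDH2 was lower in A4KO in both lines. Of the 8 members, 2 had promoter sequences in the RefSeq table used (GRCh38.p14), CDH2 and CDH4. CDH2 has 2 annotated starts there, both on the minus strand of chromosome 18, and the 250 bases before each are given 5′ to 3′ in the direction of the gene. Start 1 follows chr18:28177131-28177380, and start 2 follows chr18:28036642-28036891. Capitals mark exact matches on either strand. The letters searched were CCAAT, which reads as ATTGG on the other strand, the GC box GGGCGG, which there reads as CCGCCC, the TATA box TATAAA, which there reads as TTTATA, and the E-box CAGGTG, which there reads as CACCTG and which the SNAI and ZEB repressors are known to bind.
CDH2 start 1: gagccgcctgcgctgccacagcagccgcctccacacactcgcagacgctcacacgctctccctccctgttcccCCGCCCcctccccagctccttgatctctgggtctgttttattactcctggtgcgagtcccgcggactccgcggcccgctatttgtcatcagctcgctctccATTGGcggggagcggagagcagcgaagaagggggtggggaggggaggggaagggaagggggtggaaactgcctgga
CDH2 start 2: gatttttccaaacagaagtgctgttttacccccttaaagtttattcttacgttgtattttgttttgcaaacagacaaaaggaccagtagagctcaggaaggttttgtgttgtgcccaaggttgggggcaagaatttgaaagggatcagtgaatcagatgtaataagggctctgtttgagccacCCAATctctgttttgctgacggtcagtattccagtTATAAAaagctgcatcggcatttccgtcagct
Before start 1 there was 1 CCAAT match and 1 GGGCGG match, and before start 2 there was 1 CCAAT match and 1 TATAAA match. The E-box letters had 0 matches in both windows. Among 35116 promoter windows of this length, CCAAT was in 32.0%, GGGCGG in 42.6%, TATAAA in 10.7% and CAGGTG in 17.5%. These matches describe letters only.

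CDH1, the E-cadherin of polarized epithelia, was low in every group. Its CAKi-1 values were 0.129, 0.503, 0.675 and 0.429 TPM for WT, against 0.412, 0.295, 0.303, 0.582 and 0.315 TPM for A4KO. The groups overlapped, and the log2 fold change was -0.04 (95% interval -0.30 to 0.21, limma adjusted p = 0.789), and -0.12 over A4KO replicates 2, 3 and 5. In 786O the values were 0.103, 0.176 and 0.0319 TPM in WT and 0.307, 0.279 and 0.201 TPM in A4KO. Here the groups did not overlap, and the log2 fold change was 0.19 ± 0.06 (adjusted p = 0.0326), below the fold threshold and with all values under 1 TPM. The adjusted p was 0.0773 without WT replicate 1, 0.0845 without WT replicate 3, 0.0961 without A4KO replicate 1 and 0.0881 without A4KO replicate 2. With each library left out, the log2 fold change in 786O stayed between 0.15 and 0.24. The place of CDH1 among the 6 of 7 that passed by adjusted p alone is thus borderline with 3 libraries per group. The difference of the effect between the lines was 0.24 (interaction adjusted p = 0.205), and 0.35 (adjusted p = 0.0229) without CAKi-1 WT replicate 1. Neighbour-centred values are described with the chromosomes. With them the difference turned to -0.35 (interaction adjusted p = 0.11), and the 786O log2 fold change to -0.18 (limma adjusted p = 0.0494).

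CDH3, a cadherin of basal epithelial layers, was at 0.472 to 0.80 TPM in CAKi-1 WT and 0.0598 to 0.702 TPM in A4KO. These ranges overlapped, and the log2 fold change was -0.27 (limma adjusted p = 0.121). It was -0.17 for A4KO replicates 2, 3 and 5 alone, and -0.36 (adjusted p = 0.0271) without A4KO replicate 2. CDH4, the R-cadherin of retina and developing kidney, was lower still, with a highest value of 0.373 TPM, in 786O WT. In CAKi-1 its WT values lay between 0.0360 and 0.0951 TPM and its A4KO values between 0.124 and 0.219 TPM, without overlap, at a log2 fold change of 0.12 (adjusted p = 0.0621), and 0.10 over A4KO replicates 2, 3 and 5. At a pseudocount of 0.1 this value was 0.66 (adjusted p = 0.00628), and with trend and robust options its adjusted p was 0.0333. In 786O the log2 fold change was -0.13 (adjusted p = 0.135), and -0.20 (adjusted p = 0.0322) without WT replicate 2 and -0.37 (adjusted p = 0.00166) with neighbours taken off. It was -0.076 (limma adjusted p = 0.324) without 786O WT replicate 1. The effects differed by -0.25 between the lines (interaction adjusted p = 0.0136). At these levels the pseudocount of 1 holds every fold change close to 0.

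CDH6, a type II cadherin of the proximal tubule, had effects of opposite sign in the lines. In CAKi-1 it was at 9.73, 11.3, 8.59 and 5.94 TPM in WT and 15.4, 17.9, 17.1, 15.9 and 19.3 TPM in A4KO. The groups did not overlap, A4KO being the higher, and the lowest WT value was that of replicate 4. The A4KO mean was 1.93 times the WT mean, a log2 fold change of 0.90 ± 0.15 (limma adjusted p = 0.00157), which is under the fold threshold. It was 0.98 over A4KO replicates 2, 3 and 5, and 1.02, past the threshold, without WT replicate 2. Lower values were 0.74 without WT replicate 4 and 0.65 with neighbours taken off.

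In 786O, CDH6 was the cadherin with the highest mean in WT, at 218.5, 210.7 and 211.2 TPM, and was at 43.0, 44 and 44.4 TPM in A4KO. The WT mean was 4.87 times the A4KO mean, with no overlap. CDH6 fell by 2.26 ± 0.04 on the log2 scale (limma adjusted p = 2.5e-07). The effect differed between the lines by -3.16 (95% interval -3.58 to -2.74, interaction adjusted p = 1.6e-08), and by -3.24 with CAKi-1 A4KO replicates 2, 3 and 5 alone.

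CDH11, a type II cadherin of mesenchymal cells and osteoblasts, had the largest change of the members. Its 786O values were 37.7, 37.2 and 34.9 TPM for WT, against 0.237, 0.0761 and 0.245 TPM for A4KO. It was thus well expressed in each WT library and under 1 TPM in each A4KO library. CDH11 fell by 4.99 ± 0.07 on the log2 scale (limma adjusted p = 1.6e-07), and the value was -7.07 with a pseudocount of 0.1, so the size depends on the pseudocount. In CAKi-1 it was under 1 TPM throughout, at 0.0670 to 0.416 TPM in WT and 0.0405 to 0.176 TPM in A4KO, and the ranges overlapped. The log2 fold change there was -0.14 (adjusted p = 0.235), and -0.088 over A4KO replicates 2, 3 and 5. The effects differed by -4.85 (interaction adjusted p = 4.0e-12), between a line that expresses the gene and a line where it is near 0.

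CDH13, the lipid-anchored T-cadherin that binds adiponectin and low-density lipoprotein, also moved in opposite directions. In CAKi-1 it was at 1.91, 3.16, 2.10 and 2.81 TPM in WT and 9.57, 5.12, 6.13, 7.99 and 6.38 TPM in A4KO. All A4KO values were above all WT values, with the highest in A4KO replicates 1 and 4. The log2 fold change was 1.19 ± 0.17 (limma adjusted p = 6.5e-04). Over A4KO replicates 2, 3 and 5 it was 0.99 (adjusted p = 0.00131), just under the threshold, which leaves 1 of 8 members called in this line, where 412 of the 16296 genes were called over those replicates.

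In 786O, CDH13 was at 31.9, 33.2 and 35.7 TPM in WT and 9.86, 11.4 and 11.3 TPM in A4KO. The groups lay far apart, with a WT mean 3.09 times the A4KO mean. CDH13 fell by 1.55 ± 0.07 on the log2 scale (limma adjusted p = 9.1e-06). The effect differed between the lines by -2.74 (95% interval -3.22 to -2.25, interaction adjusted p = 2.7e-07). HSBP1 overlaps CDH13 on the same strand, and how reads were shared between them is not stated, so the CDH13 values are uncertain to that extent.

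CDH16, the cadherin of renal tubules, was higher in A4KO in both lines. In CAKi-1 it was at 0.523, 0.515, 0.443 and 0.572 TPM in WT and 1.96, 1.11, 0.920, 1.93 and 1.26 TPM in A4KO, again highest in replicates 1 and 4. In 786O it was at 6.33, 5.94 and 6.28 TPM in WT and 9.81, 8.74 and 9.13 TPM in A4KO. The groups did not overlap in either line, yet CDH16 was called in neither. The log2 fold change was 0.67 ± 0.13 in CAKi-1 (limma adjusted p = 0.00378), 0.47 there over replicates 2, 3 and 5 and 1.27, past the threshold, with a pseudocount of 0.1. In 786O it was 0.51 ± 0.05 (adjusted p = 2.4e-04). The difference between the lines was -0.16 (95% interval -0.53 to 0.22, interaction adjusted p = 0.47), with an adjusted p of 0.0499 at a pseudocount of 0.1 (-0.70) and of 0.0385 with neighbour-centred values (-0.35), which are described with the chromosomes. Its sign turned under quantile normalization (0.06) and over CAKi-1 A4KO replicates 2, 3 and 5 (0.04).

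In sum over the lines, the effect differed for 5 of 7 members by the interaction term (adjusted p of at most 0.05), against 55.1% of all genes of both lines. That share of members is not far from the background.

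**Figure D2:**
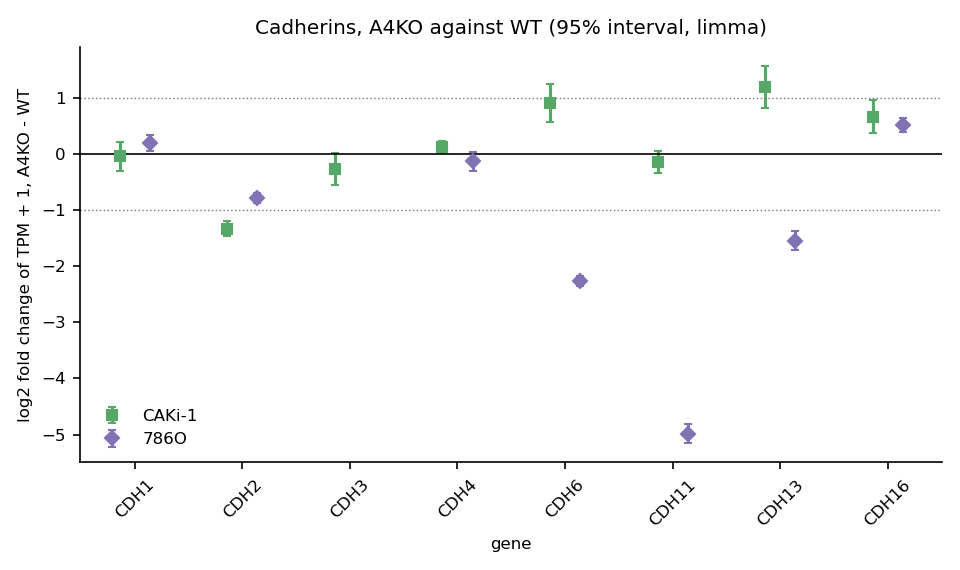
Log2 fold change of TPM + 1, A4KO minus WT, for each cadherin in CAKi-1 (squares) and 786O (diamonds), with 95% intervals from limma and dotted lines at the fold threshold. CDH6 and CDH13 lie above 0 in CAKi-1 and below 0 in 786O, and CDH11 in 786O lies lowest at -4.99.

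The cadherin balance was described as the share of each member in the summed TPM of the members of a library. The sum was 83.4 ± 0.714 TPM (SD, n = 4) in CAKi-1 WT and 53.9 ± 1.23 TPM (SD, n = 5) in A4KO. In 786O it was 413 ± 7.51 TPM (SD, n = 3) in WT and 135 ± 1.59 TPM (SD, n = 3) in A4KO. The summed level was therefore lower in A4KO in both lines, 0.646 of WT in CAKi-1 and 0.328 in 786O. In CAKi-1 the lower sum came from CDH2, at means of 70.2 TPM in WT and 27.3 TPM in A4KO. CDH6 (8.89 and 17.1 TPM) and CDH13 (2.50 and 7.04 TPM) were higher in A4KO there.

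In CAKi-1, CDH2 made up 84.1% ± 3.01 (SD, n = 4) of the sum in WT and 50.6% ± 2.64 (SD, n = 5) in A4KO. CDH6 made up 10.7% ± 2.78 in WT and 31.8% ± 2.21 in A4KO, and CDH13 made up 2.99% ± 0.719 and 13.1% ± 3.50. For these genes the ranges of the groups did not overlap, and A4KO had less CDH2 and more CDH6 and CDH13 in the sum. With CDH2 left out of the sum, the CDH6 share was -1.99 points from WT in A4KO, in place of 21.1 points. In 786O the shift of CDH2 was the other way. It made up 29.7% ± 0.317 (SD, n = 3) in WT and 52.3% ± 0.389 (SD, n = 3) in A4KO, although its own level was lower in A4KO. CDH6 made up 51.7% ± 0.132 and 32.4% ± 0.310. CDH11 made up 8.86% in WT and 0.137% in A4KO, CDH16 1.5% and 6.82%, and CDH13 8.15% and 8.03%. Of these genes, CDH13 alone had overlapping ranges.

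**Figure D3:**
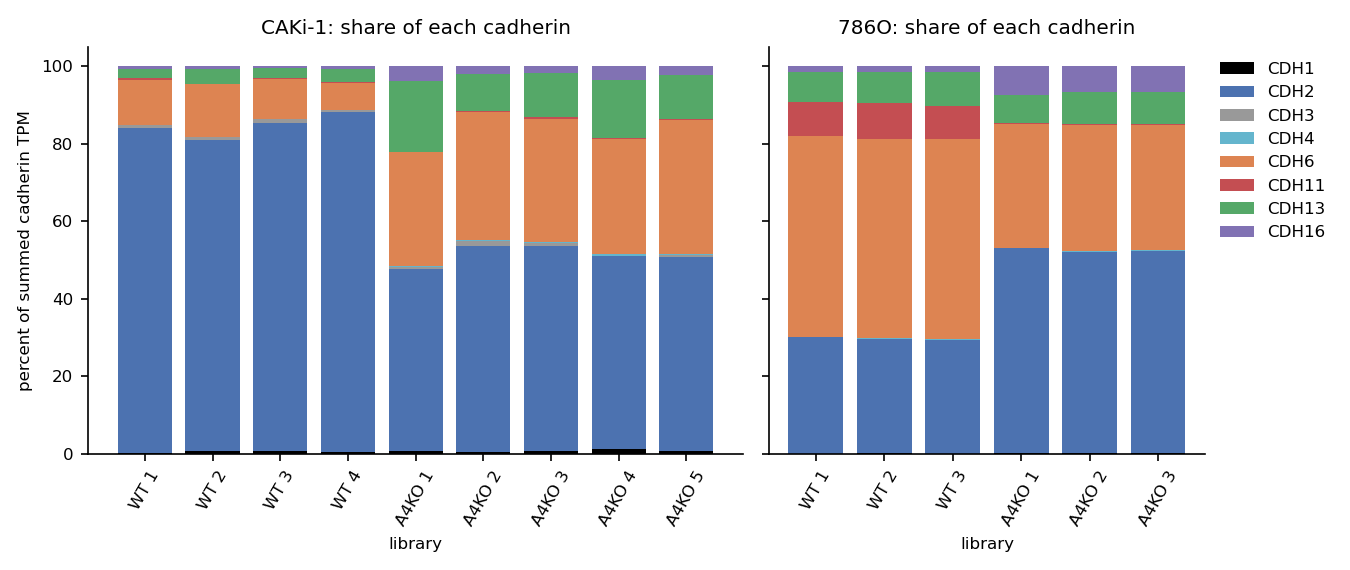
Share of each cadherin in the summed cadherin TPM of each library, in percent, for CAKi-1 (left) and 786O (right). CDH2 averages 84.1% in WT and 50.6% in A4KO in CAKi-1, and 29.7% and 52.3% in 786O.

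In the A4KO groups of the lines, CDH2 was at 50.6% and 52.3% and CDH6 at 31.8% and 32.4%, while CDH13 was at 13.1% in CAKi-1 and 8.03% in 786O, and CDH16 at 2.68% and 6.82%, without overlap for these last genes. The tables of the lines are separate, so this was described and not tested. The log2 ratio of CDH1 to CDH2 (TPM + 1) was -5.65 ± 0.25 (SD, n = 4) in CAKi-1 WT and -4.36 ± 0.19 (SD, n = 5) in A4KO, and -6.81 ± 0.10 and -5.83 ± 0.08 (SD, n = 3 each) in 786O. The ratio was higher in A4KO in both lines without overlap, and CDH1 was under 1 TPM in every library. In CAKi-1 the ratio differed by 1.29, where the log2 fold change was -0.04 for CDH1 and -1.33 for CDH2, so it restates the lower CDH2. In 786O the ratio differed by 0.98, with 0.19 for CDH1 and -0.78 for CDH2, so it mostly does the same. At a pseudocount of 0.1 the 786O ratio differed by 1.68, with 0.88 for CDH1 and -0.79 for CDH2. Over CAKi-1 A4KO replicates 2, 3 and 5 the shares differed from WT by -32.0 points for CDH2 and 22.5 for CDH6, and the ratio by 1.15.

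By mean TPM the order in CAKi-1 WT was CDH2, CDH6, CDH13, CDH3, CDH16, CDH1, CDH11 and CDH4. The first 3 were each apart from the next gene in every library, and neighbours from CDH3 on overlapped. In CAKi-1 A4KO, CDH16 came to the fourth place, apart from CDH1 below it. In 786O WT the order was CDH6, CDH2, CDH11, CDH13, CDH16, CDH4 and CDH1, where CDH11 and CDH13 overlapped, as did CDH4 and CDH1. In 786O A4KO, CDH2 came first and CDH6 second, CDH13 and CDH16 followed without overlap, and below 1 TPM CDH1 overlapped with CDH11, and CDH11 with CDH4.

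Of the members, 5 lie on chromosome 16 in GENCODE release 44 (hg38): CDH1 (ENSG00000039068.20, 16 exons), CDH3, CDH11, CDH13 and CDH16. CDH1 lies at chr16:68737292-68835537 and CDH3, at chr16:68636189-68727468, is next to it on the same strand. CDH11 lies at chr16:64943753-65126112, CDH16 at chr16:66908122-66918917 and CDH13 at chr16:82626965-83800640. CDH2 lies at chr18:27932879-28177946, CDH4 at chr20:61252261-61940617 and CDH6 at chr5:31193686-31329146. In 786O the median log2 fold change of 589 expressed genes of chromosome 16 was 0.32, against -0.04 for all expressed genes, and that of the 50 expressed genes nearest to CDH1, CDH11, CDH13 and CDH16 was 0.39, 0.44, 0.27 and 0.31. CDH11 and CDH13 fell against this shift, while CDH16, at 0.51, and CDH1, at 0.19, lay on its side of 0. In CAKi-1 the median of chromosome 16 was -0.18, against -0.03 for all expressed genes, and the medians around CDH1, CDH11, CDH13 and CDH16 were -0.21, 0.11, -0.23 and 0.16.

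In neighbour-centred values the shift of those neighbours is taken off each gene in each library. With them, CDH11 was at -5.38 and CDH13 at -1.84 in 786O, both called, CDH16 was at 0.18 (limma adjusted p = 0.0252), and CDH1 turned to -0.18 (adjusted p = 0.0494). In CAKi-1 the same treatment gave CDH13 1.44, called, CDH16 0.53 and CDH6 0.65, whose neighbours had a median of 0.25. The CDH2 value was -1.30 in CAKi-1 and -0.51 in 786O, where its neighbours on chromosome 18 had a median of -0.23. The part of these neighbouring shifts in the values of the members was not tested otherwise.

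**Figure D4:**
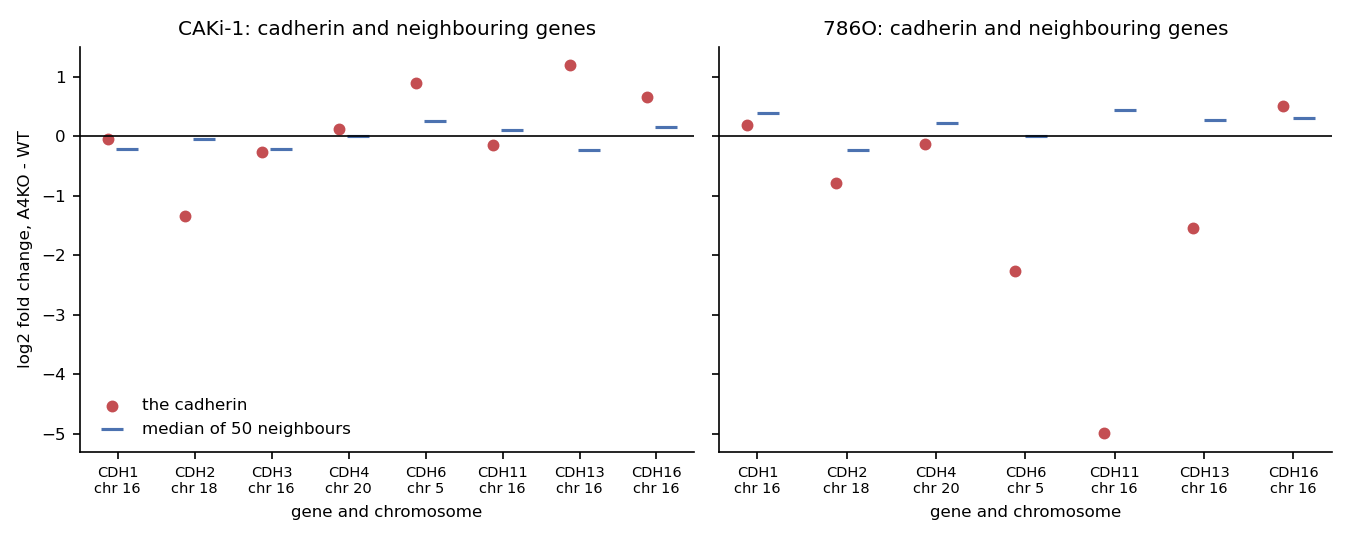
Log2 fold change (A4KO minus WT) of each cadherin (points) and median of the 50 expressed genes nearest to it on its chromosome (bars), in CAKi-1 (left) and 786O (right). In 786O the neighbours of the chromosome 16 cadherins lie between 0.27 and 0.44, while CDH11 and CDH13 lie below 0.

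Other genes of the junction were described through lists chosen with results known. Beside the counts of every list stand the shares of all genes, 3.33% called in CAKi-1 and 7.62% in 786O. The shares that passed by the adjusted p alone were 39.0% and 61.0%. Of the other classical cadherins, 7 of 12 had values in CAKi-1 and 6 in 786O, and 0 were called in either line, with CDH24 the highest at a mean of 8.97 and 7.74 TPM (log2 fold change -0.60 and -0.54). In 786O the CDH24 value turned to 0.26 (adjusted p = 0.00252) with neighbour-centred values. Of 7 cadherin-related genes, 1 was called higher in CAKi-1 and 1 lower in 786O. They were CDHR1, a photoreceptor cadherin (5.70 to 16.7 TPM), and CDHR3, the receptor of rhinovirus C (3.37 to 0.990 TPM, log2 fold change -1.14, and -0.95, no longer called, under quantile normalization). CDHR2, a brush border cadherin, was the most abundant of them in 786O (8.19 to 6.84 TPM, -0.23, adjusted p = 0.078). CDHR1 was at 0.999 in log2 fold change over A4KO replicates 2, 3 and 5, just under the threshold. Other classical cadherins that passed by the adjusted p alone numbered 2 in CAKi-1 and 1 in 786O, all lower. Cadherin-related genes that did so numbered 2 in CAKi-1, both higher, and in 786O 1 higher and 2 lower.

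Of 12 catenins and actin linkers with values, 1 was called higher in CAKi-1, and 2 higher and 1 lower in 786O. JUP, plakoglobin, which takes the place of β-catenin on cadherin tails, rose in both lines, from a mean of 24.4 to 117 TPM in CAKi-1 (log2 fold change 2.23, limma adjusted p = 9.7e-04, and 1.84 over A4KO replicates 2, 3 and 5) and from 1.68 to 6.64 TPM in 786O (1.51, adjusted p = 6.0e-06). CTNNA3, an α-catenin of heart and testis, rose in 786O from 0.587 to 2.71 TPM, and LIMA1, an actin linker, fell from 57.6 to 25.8 TPM. CTNNA1, the main α-catenin and the most abundant of the list, had a log2 fold change of -0.38 in CAKi-1 and 0.20 in 786O. The median of the list was -0.05 and -0.17. Genes of this list that passed by the adjusted p alone were 1 higher and 5 lower in CAKi-1, and 4 higher and 6 lower in 786O.

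Of 6 genes of nectins, afadin and the polarity scaffold PARD3, listed as a second adhesion system beside cadherins, 0 were called in CAKi-1 and 1 in 786O, NECTIN1 (17.6 to 5.36 TPM, log2 fold change -1.54). Its value was -0.94 with neighbours taken off. NECTIN2 was the most abundant in CAKi-1 (0.06, adjusted p = 0.495) and PARD3 in 786O (0.22). Passing by the adjusted p alone were 2 of the 6 in CAKi-1, both lower, and in 786O 1 higher and 3 lower. Of the desmosomal genes, 0 of 7 were called in CAKi-1, with a median of -0.34, and 2 of 6 in 786O, where PKP2 rose from 0.389 to 6.39 TPM and DSC2 fell from 8.32 to 0.806 TPM. DSG2, the most abundant, had -0.34 and -0.24. Desmosomal genes that passed by the adjusted p alone were 1 higher and 5 lower in CAKi-1, and 2 higher and 2 lower in 786O. PKP2 was lower in CAKi-1 (-0.83, limma adjusted p = 1.4e-04) and DSC2 higher (0.23, adjusted p = 0.0233), each opposite to its direction in 786O.

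Of 13 genes of cadherin processing and turnover, 0 were called in CAKi-1 and 2 in 786O, both higher. They were FURIN, a protease that matures cadherin precursors (20.0 to 45.8 TPM), and MDM2, a ubiquitin ligase (12.2 to 27.3 TPM, log2 fold change 1.11, and 0.92 with neighbours taken off). The most abundant were RAB11A in CAKi-1 (-0.14) and ADAM10, the sheddase of CDH1 and CDH2, in 786O (225 to 347 TPM, 0.62). Processing genes that passed by the adjusted p alone were 3 higher and 6 lower in CAKi-1, and 7 higher and 5 lower in 786O.

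Of the E-cadherin repressors, 1 of 9 was called in CAKi-1 and 0 of 7 in 786O. By the adjusted p alone 4 of 9 passed in CAKi-1, against 39.0% of all genes, 2 higher and 2 lower in A4KO, with a list median of 0.02. In 786O 3 of 7 passed, against 61.0%, all lower, with a list median of -0.31. Named after their values were seen, these were SNAI1, with -0.96 (adjusted p = 3.4e-05), ZEB1, with -0.92 (adjusted p = 3.2e-05), and FOXC2, with -0.65 (adjusted p = 2.3e-05). In 786O, SNAI1 and FOXC2 were called at a pseudocount of 0.1 and with neighbours taken off, and the CAKi-1 count was 2 at that pseudocount. With neighbours taken off, SNAI2 passed as higher in 786O (0.13, limma adjusted p = 0.0373) and TCF3 as lower (-0.26, adjusted p = 0.00802). In CAKi-1, ZEB1 then passed as higher (0.22, limma adjusted p = 0.0134) and FOXC2 passed no longer (-0.16, adjusted p = 0.362). SNAI2 rose in CAKi-1 from 1.44 to 6.76 TPM (log2 fold change 1.67, limma adjusted p = 1.1e-06, and 1.75 over A4KO replicates 2, 3 and 5). TCF3, the most abundant, had -0.07 and -0.15. Of the activators and genes of the epithelial state, 0 of 9 were called in CAKi-1 and 1 of 6 in 786O, EPCAM, an epithelial adhesion protein that fell from 17.4 to 3.12 TPM. ELF3, an epithelial transcription factor and the most abundant, had 0.87 in CAKi-1 (limma adjusted p = 0.0114) and 0.68 in 786O. The CAKi-1 value of ELF3 was 1.03, past the threshold, without WT replicate 4, and 0.65 over A4KO replicates 2, 3 and 5. EHF, named after its values were seen, had 1.17 in CAKi-1 (adjusted p = 0.063). The CAKi-1 count was 1 with the replicate block, and 2 with neighbours taken off or without WT replicate 4. The 786O count was 2 at a pseudocount of 0.1, under quantile normalization, without mitochondrial genes, with neighbours taken off, and without WT replicate 2 or A4KO replicate 3. Genes of the activator list that passed by the adjusted p alone were 2 higher and 1 lower in CAKi-1, and 3 higher and 3 lower in 786O. CDH1 was under 1 TPM in every library.

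Of the renal list, KRT8 and KRT18, keratins of simple epithelia, fell in CAKi-1, with log2 fold changes of -1.88 and -1.57, and -1.53 and -1.26 over A4KO replicates 2, 3 and 5 (2 of 7 called), and in 786O PAX2 rose from 11.2 to 41.0 TPM and CA9 fell from 7.54 to 0.287 TPM (2 of 9). The summed list was at 5304 to 6375 TPM in CAKi-1 WT and 2784 to 3710 in A4KO, and at 5623 to 5823 in 786O WT and 4335 to 4385 in A4KO. Of the proximal tubule list, 0 of 6 were called in CAKi-1 and 1 of 7 in 786O, ANPEP, a brush border peptidase that fell from 95 to 4.83 TPM. The 786O count was 3 at a pseudocount of 0.1 and with neighbours taken off. ANPEP was the most abundant of the list in CAKi-1 (129 to 202 TPM, 0.64) and GGT1 was in 786O (0.72, and 1.01 with neighbours taken off). The summed list was at 132 to 159 TPM in CAKi-1 WT and 211 to 245 TPM in A4KO, and at 188 to 206 TPM in 786O WT and 167 to 171 TPM in A4KO.

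Of the distal nephron list, 0 of 5 were called in CAKi-1 (2 at a pseudocount of 0.1), with all 5 at means under 1 TPM and a sum of 1.31 to 1.89 TPM in WT and 0.458 to 2.22 TPM in A4KO. In 786O, 2 of 5 were called, CALB1 higher (2.27 to 5.86 TPM, log2 fold change 1.09, and 0.95 without WT replicate 1) and GATA3 lower (4.35 to 0.0584 TPM), and the sum was 5.88 to 8.90 TPM in WT and 6.58 to 7.14 TPM in A4KO. UMOD and AQP2, which define these segments, had no values in either line.

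Of the fibroblast list, COL1A1, the most abundant, rose in CAKi-1 from 10.2 to 36.2 TPM (log2 fold change 1.72, and 1.60 over A4KO replicates 2, 3 and 5; 1 of 5 called, and 2 at a pseudocount of 0.1). LUM was lower in every A4KO library of that line, at a mean of 3.63 TPM in WT and 1.58 TPM in A4KO (-0.85, adjusted p = 6.4e-04), so the higher sum there came from COL1A1. In 786O, LUM was the most abundant and fell from 7.93 to 1.28 TPM (1 of 5). The sum was 13.4 to 16.5 TPM in CAKi-1 WT and 32.1 to 48.7 TPM in A4KO, and 11.2 to 15.1 TPM in 786O WT and 5.90 to 6.80 TPM in A4KO. DCN averaged under 1 TPM in every group. Of the endothelial list, PECAM1 alone had values in CAKi-1 and rose from 0.360 to 3.29 TPM (log2 fold change 1.55, and 1.11 over A4KO replicates 2, 3 and 5), while VWF and KDR had none in either line. The summed list in 786O, over 3 genes with 0 called, was 1.36 to 1.89 TPM in WT and 0.680 to 0.687 TPM in A4KO. Of the leukocyte list, PTPRC was under 1 TPM in both lines. CD68, a lysosomal protein that many cells make and the most abundant of the list, fell in 786O from 43.1 to 20.2 TPM (1 of 4 called), with a value of -0.53 with neighbours taken off, and had -0.08 in CAKi-1 (0 of 5). The leukocyte sum was 56.5 to 60.1 TPM in CAKi-1 WT and 50.3 to 60.8 TPM in A4KO, and 42.9 to 44.5 TPM and 20.3 to 21.7 TPM in 786O. The part of these markers in the cadherin values was not tested. In cultures of many cells, fewer cells with a transcript and less of it per cell cannot be told apart.

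Mitochondrial genes took 6.39 to 7.88% of the TPM in CAKi-1 WT and 6.58 to 8.00% in A4KO, and 7.47 to 8.16% in 786O WT and 9.46 to 10.0% in A4KO. Without them, the called genes numbered 563 in CAKi-1, 2 of them members, and 1280 in 786O, 3 of them members.

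The genes most like each member over the 15 libraries were found by Pearson's r of log2(TPM + 1), as a description. The libraries form 4 groups from separate tables, so r mostly follows the group means. CDH2 was closest to IFITM3 (r = 0.989), an interferon-induced membrane protein, and PEX10 (0.985), a peroxisome protein. CDH6 was closest to RUNX2 (0.998), a transcription factor of bone, and APMAP (0.992). CDH11, expressed in 786O WT only among the 4 groups at a mean above 1 TPM, was closest to AUTS2 (0.998) and PLD5 (0.997), which were also near 0 in the other groups. AUTS2, a neurodevelopmental gene, averaged 38.7 TPM in 786O WT and 0.128 TPM in A4KO. CDH13 was closest to SNTB1 (0.995), a syntrophin, and PTPN18 (0.990), a phosphatase. CDH16 was closest to CA12 (0.995), a carbonic anhydrase of the cell surface, and CAMK2N1 (0.994).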

How the data were processed

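The deposited values are TPM as inferred from the files: the authors used kallisto with hg38, the values carry decimals, and each library sums to between 961437 and 973887. How transcripts were added up per gene, and whether strand was used, is not given in the sources used here. No value was exactly 0, the sums were under 1000000, and 15247 genes were shared by the lines. Genes may therefore have been removed before the values were shared, although the methods of the study name no filter. A gene without a value in a line may be such a gene. Shares of all genes cover only the genes with values. Tools for counts were not used.

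WT and A4KO were compared on log2(TPM + 1), separately for CAKi-1 and 786O, in limma 3.58.1 (lmFit, eBayes; R 4.3.3). Tests were two-sided, and p was adjusted by Benjamini-Hochberg across every gene with values in that line, without further filtering. The pseudocount makes fold changes of low genes smaller. Whether an effect differed between the lines was tested by an interaction in limma, across genes measured in both. The method was tested on simulated data. Shares and ratios were described without a test.

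The members and lists were chosen with earlier results of these data known. Named genes were ANGPTL4, the members, every called gene of each list with its most abundant gene in each line (of more than 12 called genes, the 3 largest rises and falls), and for members with a mean of at least 1 TPM in a group the 2 most alike genes; DCN, LRP2, PAX8, PTPRC, UMOD, AQP2, VWF and KDR were added as defining markers after their values were seen. CDH5 stands in more than 1 list. The value of 1 listed gene is not reported here. Alternatives were a pseudocount of 0.1, genes with a mean of at least 1 TPM, quantile normalization, TPM without mitochondrial genes, trend and robust options, a replicate block, each library left out, neighbour-centred values (25 expressed genes on each side, with a mean log2 of at least 1), the adjusted p alone, and CAKi-1 A4KO replicates 2, 3 and 5 only.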

Additional observations from a re-analysis of the deposited data

Results flagged for a closer look

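The knockout effect differed between the lines, by the limma interaction term (786O minus CAKi-1, log2), for CDH11 by -4.85, for CDH6 by -3.16, for CDH13 by -2.74, for CDH2 by 0.55 and for CDH4 by -0.25. CDH6 and CDH13 had effects of opposite sign in the lines, CDH2 was lower in A4KO in both, and CDH4 was under 1 TPM in every library. CDH11 was under 1 TPM in every CAKi-1 library, so a fall like that in 786O could not show there. The reason for these differences was not tested.

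CDH4 in CAKi-1 A4KO replicate 4, at 0.219 TPM, lay far above the other 4 libraries of its group. It was 1 of 66 sets of 4 or 5 libraries examined in this way, of which chance alone marks about 1 in 20.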

How the results depend on the processing

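The members called numbered 2 in CAKi-1 and 3 in 786O under quantile normalization, TPM without mitochondrial genes, trend and robust options and neighbour-centred values. In CAKi-1 they numbered 3, with CDH16, at a pseudocount of 0.1, 4 by the adjusted p alone, 1 with A4KO replicates 2, 3 and 5 only, and 2 to 3 with each library left out; in 786O they numbered 6 by the adjusted p alone. Calls among all genes went from 543 to 1077 in CAKi-1 and from 1233 to 2095 in 786O at a pseudocount of 0.1, and to 6348 and 9874 by the adjusted p alone; with each library left out they ran from 477 to 608 and from 1221 to 1243. The share of 786O calls that were higher in A4KO was 31.9%, and 42.7% under quantile normalization. Members that differed between the lines numbered 5 of 7 in the main setting, against 55.1% of all genes of both lines. They numbered 6 at a pseudocount of 0.1 and with neighbour-centred values, and 5 to 6 with each library left out. Among genes with a mean of at least 1 TPM they numbered 3, where CDH1, CDH4 and CDH11 were not tested. Of the members tested there, CDH16 alone did not differ (limma interaction adjusted p = 0.448). Same-numbered WT and A4KO libraries had r from -0.06 to 0.13 in CAKi-1 and from -0.05 to 0.02 in 786O. These values give no sign of a pairing, and 4 and 3 such pairs are too few to exclude one. With the replicate block, which in CAKi-1 also drops A4KO replicate 5, the calls were 603 in CAKi-1 and 1233 in 786O, with 2 and 3 members. Leaving out that library without a block also gave 603.

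Some log2 fold changes changed sign, and the cause was not tested. With neighbour-centred values these included CDH1 in CAKi-1 (0.16) and 786O (-0.18), CDH24 (0.26) and DSG2 (0.0398) in 786O, NECTIN2 (-0.0671) and GATA3 (0.0329) in CAKi-1, and the difference of the CDH1 effect between the lines (-0.35). Of the E-cadherin repressors, SNAI2 in 786O (from -0.0202 to 0.13) and SNAI1 in CAKi-1 (from 0.0198 to -0.0156) also changed sign with these values. With quantile normalization they were TCF3 (0.0193) and CD68 (0.00479) in CAKi-1 and the difference for CDH16 (0.0620). With A4KO replicates 2, 3 and 5 only they were NECTIN2 (-0.0140), TCF3 (0.0296) and the difference for CDH16 (0.0397). With each library left out, CDH1 in CAKi-1 ran from -0.15 to 0.0359. Without CDH2 in the sum, the CDH6 share in CAKi-1 was -1.99 points from WT in place of 21.1, and without CDH6 the CDH2 share in 786O was 15.9 points higher in place of 22.6. The CDH1 to CDH2 log2 ratio in 786O was 1.68 higher in A4KO at a pseudocount of 0.1, against 0.98. CDHR3 in 786O was at -0.95, past the threshold no longer, under quantile normalization, and ELF3 in CAKi-1 at 1.20, past it, with neighbour-centred values. Values under 1 TPM are limited by the number of reads, which TPM does not keep. Replicates 2, 3 and 5 only, for shares, the ratio, lists and the difference between the lines, was chosen after seeing the data.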
